A study of Homo sapiens and Mus musculus with 14 samples.

Results

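The HOX genes of the 4 human clusters were examined in the accessible-chromatin peaks of MDA-MB-436, an established human breast adenocarcinoma line. Protein-coding hg38 symbols that begin with HOXA, HOXB, HOXC or HOXD followed by a number were taken, and 38 genes are reported: 10 HOXA genes on chromosome 7, 10 HOXB genes on chromosome 17, 9 HOXC genes on chromosome 12 and 9 HOXD genes on chromosome 2. Peaks were taken from the first to the last gene of each cluster plus 50 kb on each side. These windows held 25 of 64806 control peaks, 15 of 39537 clone 1 peaks and 12 of 34572 clone 2 peaks.

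The series asked how loss of SMARCAL1, an ATP-driven enzyme that reanneals DNA and reshapes stalled forks during replication, affects chromatin accessibility measured by ATAC-seq, in which a transposase cuts open DNA. Each of the 3 groups is 1 peak list that the authors merged from replicates: control MDA-MB-436 cells (3 libraries, batch 1), SMARCAL1 knockout clone 1 (3 libraries, batch 1) and SMARCAL1 knockout clone 2 (2 libraries, batch 2). The labels give the control cells' genotype as Control and name no other agent or allele. Each knockout group is 1 clone, so the effects of the knockout and of picking a clone cannot be told apart, nor, in clone 2, can knockout and batch. The SMARCAL1 gene held 3, 3 and 2 peaks in control, clone 1 and clone 2, which does not check the knockout. With 1 list per group there is no replicate check, so no p-value is given, and every interval is an exact binomial 95% interval that covers counting error only.

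HOX genes encode homeodomain transcription factors that set position along the body axis and in the limbs. In each cluster they lie in the order in which they are used: low-numbered (anterior) genes at the 3′ side and high-numbered (posterior) genes at the 5′ side, all transcribed in the same direction. Polycomb complexes keep the clusters silent where they are not used, trithorax-type methyltransferases keep used genes active, and the proteins bind DNA together with PBX and MEIS cofactors.

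Most HOX starts had no peak. A peak within 1000 bp of a start was present for 15 of the 38 HOX genes in control, 12 in clone 1 and 6 in clone 2. These are 39.5% (24.0 to 56.6), 31.6% (17.5 to 48.7) and 15.8% (6.02 to 31.3), beside 65.2%, 54.8% and 48.3% of all 15859 protein-coding genes with a known strand. The HOX intervals lie below the shares of all genes in each list, although neighbouring HOX genes share peaks, which makes these intervals too narrow. The starts searched also differ. For 18 of the 38 HOX genes only the annotated 5′ end was searched, while every other gene also had its listed starts. At the listed starts alone of the 20 HOX genes that have them, 10, 7 and 4 had a peak in control, clone 1 and clone 2. Whether the HOX share is lower on these starts was not tested. HOXA4, HOXC13, HOXD1, HOXD3, HOXD4 and HOXD8 had a start-site peak in all 3 lists, 6 of 38 genes beside 44.3% of all genes. For HOXD3 this was at the annotated 5′ end and not at its listed start. No list had one for 22 of the 38, beside 32.5% of all genes.

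The promoters of 4 genes show some of the states found: HOXD1 and HOXA4, with a peak in every list, HOXD11, with a peak in control and clone 1, and HOXA13, with a peak in control alone. None is shown for the most frequent state, no start-site peak in any list (22 of 38 genes). Each is the 250 bases before a RefSeq start (GRCh38.p14), written 5′ to 3′ on the gene's strand. HOXD1 is chr2:176188418-176188667 on the plus strand, HOXA4 is chr7:27130758-27131007 on the minus strand, HOXD11 is chr2:176107030-176107279 on the plus strand and HOXA13 is chr7:27200092-27200341 on the minus strand. Capitals mark matches on either strand to TAAT (the homeodomain core), TGATTNAT (a PBX-HOX composite), the CTCF core and GGGCGG (the GC box); TGANTCA (AP-1) was also searched, and matches may overlap.
HOXD1: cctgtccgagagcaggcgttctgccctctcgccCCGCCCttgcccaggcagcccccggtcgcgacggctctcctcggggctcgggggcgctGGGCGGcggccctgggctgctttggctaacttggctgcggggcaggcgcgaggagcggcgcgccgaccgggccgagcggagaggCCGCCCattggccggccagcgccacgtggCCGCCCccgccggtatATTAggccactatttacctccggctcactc
HOXA4: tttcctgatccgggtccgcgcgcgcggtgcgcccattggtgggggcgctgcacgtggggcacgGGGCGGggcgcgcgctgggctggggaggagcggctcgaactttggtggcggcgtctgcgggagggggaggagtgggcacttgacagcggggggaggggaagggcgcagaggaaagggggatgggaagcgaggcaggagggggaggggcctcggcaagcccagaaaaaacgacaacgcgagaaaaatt
HOXD11: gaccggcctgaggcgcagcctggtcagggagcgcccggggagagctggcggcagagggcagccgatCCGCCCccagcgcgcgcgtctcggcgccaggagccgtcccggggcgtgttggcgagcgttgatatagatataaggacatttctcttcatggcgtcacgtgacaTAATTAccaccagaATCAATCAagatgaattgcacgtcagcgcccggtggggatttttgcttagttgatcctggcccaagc
HOXA13: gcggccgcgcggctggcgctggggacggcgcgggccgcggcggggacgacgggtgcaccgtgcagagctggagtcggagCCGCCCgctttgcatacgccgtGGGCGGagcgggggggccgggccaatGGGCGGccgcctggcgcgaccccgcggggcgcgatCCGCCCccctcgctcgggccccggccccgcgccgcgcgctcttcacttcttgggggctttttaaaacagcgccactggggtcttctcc

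The 250 bases of HOXD1 lay wholly under a peak in control and clone 1, and 141 of them under a peak in clone 2. For HOXA4 the same counts were 250, 250 and 79. The HOXD11 bases were wholly covered in control and clone 1 and not covered in clone 2, and those of HOXA13 were covered in control alone. HOXD1 and HOXA13 each held 4 GC boxes, and HOXA4 and HOXD11 each held 1. HOXD11 held 2 TAAT cores and 1 match to the PBX-HOX composite. HOXD1 held 1 TAAT core, and the 250 bases of HOXA4 and HOXA13 held none. Among the promoters shown, neither the GC box count nor the TAAT count alone separated those with a peak in every list from the one with a peak in control alone.

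RefSeq promoter sequence matched 20 of the 38 genes, with 26 distinct windows of 250 bases before to 50 after a start, several of them for HOXA3. TAAT was present in 20 of the 26 (76.9%), beside 42.8% of 22076 promoter windows of protein-coding genes. TGATTNAT was in 2 (7.69%), at HOXA2 and HOXD11, beside 2.06%, and the CTCF core in 2 (7.69%), at HOXA11 and HOXD10, beside 5.55%. GGGCGG was in 13 of the 26, beside 56.3%, and TGANTCA in none, beside 6.16%. The HOX windows had a median GC content of 58.0% (range 43.7 to 76.3) beside 62.3% in all windows, and a median of 22.5 CpG sites beside 21.0. Peaks overlapped 7 of the 26 windows in control (26.9%), 4 in clone 1 (15.4%) and 2 in clone 2 (7.69%), beside 54.3%, 44.6% and 36.3% of all windows. HOXA3 alone has 7 of the 26 windows, none of them overlapped in any list, which lowers the HOX shares. None of the differences from all windows was tested.

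**Figure D1:**
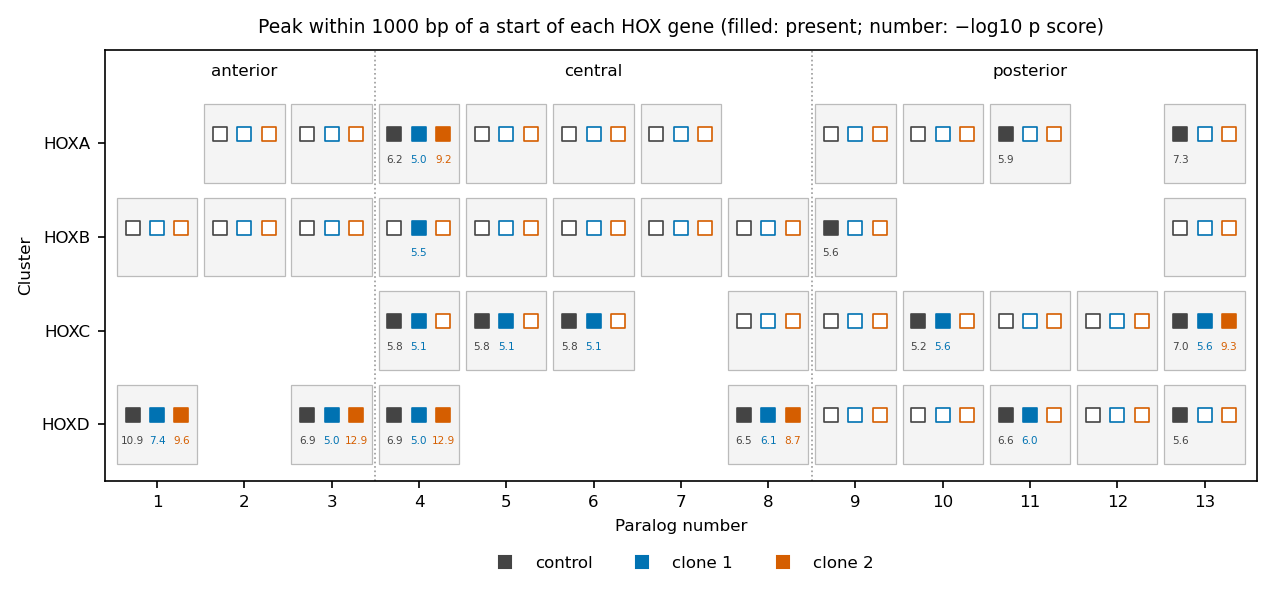
Presence of a peak within 1000 bp of a start for each of the 38 HOX genes, by cluster (rows) and paralog number (columns, blank where no gene was analysed), in control (grey), clone 1 (blue) and clone 2 (orange); filled squares are present and the number below is the score of the strongest such peak. Peaks were present for 15 genes in control, 12 in clone 1 and 6 in clone 2, and HOXD holds 4 of the 6 genes filled in all 3 lists.

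The anterior genes (paralogs 1 to 3), which act in the hindbrain and neck region, were described first. Of 7 anterior genes, HOXD1 and HOXD3 (the latter at its annotated 5′ end only) had a start-site peak in each of the 3 lists and the other 5 in none. HOXD1 had the strongest control peak at any HOX start, with a score of 10.9; its clone 1 peak scored 7.39 and its clone 2 peak 9.59. Scores, read as −log10 p values from the authors' peak calling, rank peaks within a list; they are not compared between lists. The HOXD1 peaks stood at percentiles 84.7, 73.4 and 33.4 of their lists, so in clone 2 most peaks of that list scored higher.

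HOXD3 and its neighbour HOXD4 shared 1 peak in each list. The control peak (176151385 to 176153096) spanned the annotated 5′ ends of both genes and scored 6.88. In clone 1 the peak (176151375 to 176152151) covered the HOXD4 start alone and scored 5.01, at percentile 0.797 of its list. The clone 2 peak (176152340 to 176152563) covered the HOXD3 5′ end, 790 bp from the HOXD4 start, and scored 12.9, at percentile 67.0. The peaks of the clones did not overlap each other, although each overlapped the control peak. The listed RefSeq start of HOXD3 lies further downstream, and no peak of any list overlapped its promoter window (176157057 to 176157356).

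The 5 without a start-site peak in any list were HOXA2, HOXA3, HOXB1, HOXB2 and HOXB3. HOXB3 had a control peak inside the gene, 4661 bp from its annotated start. HOXA2 was 27358 bp from the nearest control peak, and HOXB1 was 53921 bp from it.

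The central genes (paralogs 4 to 8), which act at neck to thoracic levels, numbered 15, of which 6 had a start-site peak in control, 7 in clone 1 and 3 in clone 2. At HOXA4 the control list held a peak across the start (27130607 to 27131320, score 6.20) and a weaker one just inside the gene (27130041 to 27130539, score 5.03). In clone 1 a single peak of 1301 bp (27130050 to 27131350, score 5.01) spanned both, and in clone 2 they were matched by narrow peaks of 145 bp (score 9.15) and 121 bp (score 7.01). The weaker control peak was in the lowest score decile, in which 7.38% of all control peaks were found in clone 1 and 6.79% in clone 2.

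HOXD8 had a control peak of 1683 bp (176129303 to 176130985, score 6.52) across its start. Its clone 1 peak of 925 bp (score 6.06) and its clone 2 peaks of 155 and 310 bp (scores 8.73 and 7.24) lay inside the control peak, 290 to 616 bp from the start. The accessible stretch found in all 3 lists was therefore downstream of the annotated start.

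HOXC4, HOXC5 and HOXC6 share an annotated 5′ end and 1 peak beside it. That peak scored 5.81 in control (54017443 to 54018875) and 5.06 in clone 1 (54017445 to 54017849), 555 and 557 bp from the start. The clone 2 peak there (54017956 to 54018064, score 6.80) lay 1068 bp from the start, just outside the 1000 bp limit, so these 3 genes count as without a start-site peak in clone 2 although the peak overlaps that of control. HOXB4 had a peak across its start in clone 1 alone (48578123 to 48578505, score 5.46). HOXA5, HOXA6, HOXA7, HOXB5, HOXB6, HOXB7, HOXB8 and HOXC8 had none in any list. HOXB6 had a control peak 2141 bp from its start (48602446 to 48602845, score 6.53) that neither clone had.

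Among the 16 posterior genes (paralogs 9 to 13), which act in the lower trunk, limbs and urogenital tract, 7 had a start-site peak in control, 3 in clone 1 and 1 in clone 2, while the shares of all genes were 65.2%, 54.8% and 48.3%. All 4 HOX genes with a start-site peak in control and in neither clone were posterior: HOXA11, HOXA13, HOXB9 and HOXD13. Of all genes with a control start-site peak, 13.7% had none in either clone. This contrast depends on the length of the lists. When each list was limited to its 34572 strongest peaks, the posterior counts were 3, 3 and 1 of 16. Of the 8 HOX genes that then had a control start-site peak, 1 had none in either clone. The shares of all genes were not computed at that length.

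HOXA13, needed for the digits and the genital tubercle, had a control peak across its start (27200040 to 27200371, score 7.32) and another inside the gene (27199031 to 27199430, score 5.15). Neither was in a clone. The first stood at percentile 65.2 of the control list, and of all control peaks of its score decile 49.5% were found in clone 1 and 53.9% in clone 2. HOXA11, a limb and kidney gene, had a control peak 536 bp before its start (27185768 to 27185996, score 5.92), in a decile with 25.7% and 25.9% found. HOXB9 (48625694 to 48626299) and HOXD13 (176092562 to 176093568), the latter at a listed start inside the annotated gene, both scored 5.57, in a decile with 18.4% and 16.7% found. In each clone taken alone, absence was thus the more frequent outcome for control peaks of the scores of HOXA11, HOXB9 and HOXD13, and a close to even one for HOXA13. These rates are per clone, and the share of each decile absent in both clones is not given.

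The posterior genes with peaks in at least 1 clone were HOXC13, HOXC10 and HOXD11. HOXC13, known for its part in hair and nails, had peaks of 1481, 905 and 217 bp in control, clone 1 and clone 2 at its start (the last 109 bp before it), with scores of 6.97, 5.60 and 9.26. HOXC10 had a control peak (53984894 to 53985419, score 5.15) and a clone 1 peak (53984764 to 53985200, score 5.58) across its start and none in clone 2. HOXD11 had the same pattern, with scores of 6.59 in control (176106530 to 176107627) and 5.98 in clone 1 (176106935 to 176107523). HOXA9, HOXA10, HOXB13, HOXC9, HOXC11, HOXC12, HOXD9, HOXD10 and HOXD12 had no start-site peak in any list.

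In all, 4 of the 15 HOX genes with a control start-site peak had none in clone 1 (26.7%, 7.79 to 55.1), beside 19.0% of all genes with a control start-site peak. In clone 2 it was 9 of 15 (60.0%, 32.3 to 83.7), beside 26.7%, and in both clones 4 of 15 (26.7%), beside 13.7%. The 15 genes rest on 12 distinct control peaks, since HOXC4, HOXC5 and HOXC6 share 1 and HOXD3 and HOXD4 share another. Counting a clone peak anywhere over the control start-site peak as present left 4 genes absent in both clones and 6 rather than 9 absent in clone 2, since HOXC4, HOXC5 and HOXC6 then count as present. With lists of equal length, 8 HOX genes had a control start-site peak, and 2 of these 8, rather than 9 of 15, had none in clone 2. The share of all genes was not computed at that length, so these 2 are not set apart from it.

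**Figure D2:**
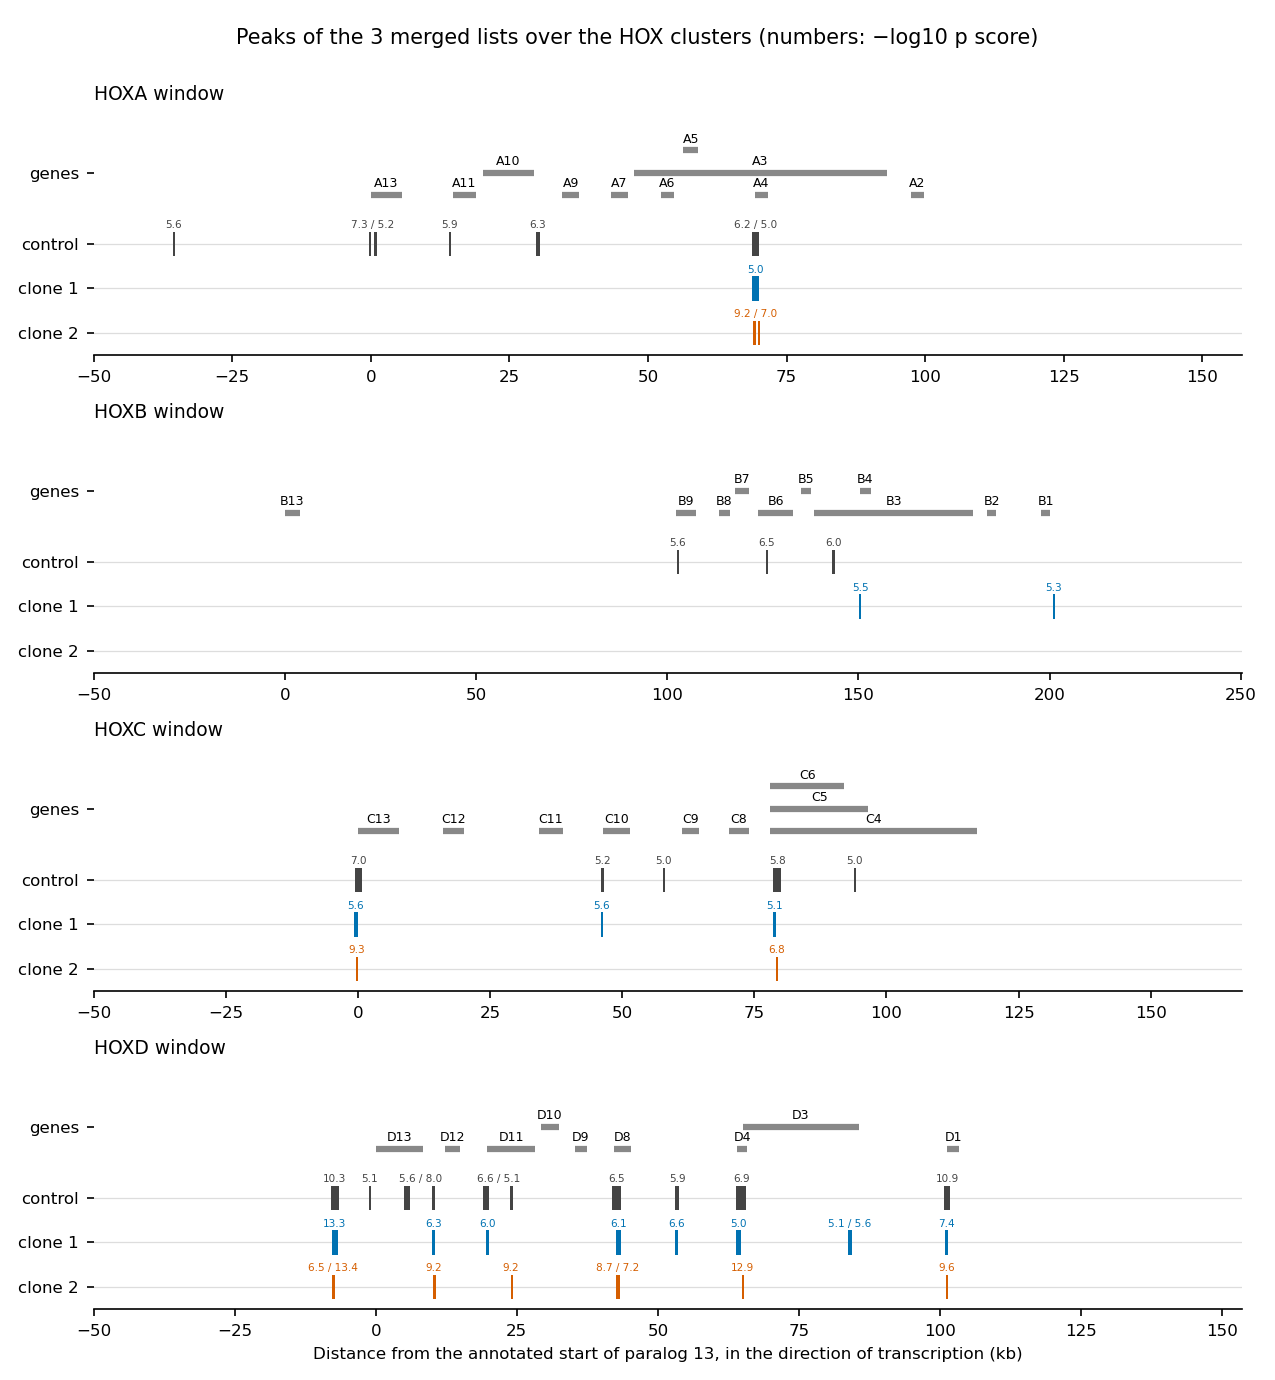
The analysed peaks of the 3 lists in the 4 HOX windows, drawn by distance from the annotated start of paralog 13 in the direction of transcription (kb); rows are genes, control, clone 1 and clone 2, numbers are −log10 p scores from left to right, and bars narrower than 0.4 kb are drawn at 0.4 kb. HOXD holds 10, 9 and 8 peaks in the 3 lists and HOXB holds 3, 2 and 0.

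The clusters differed in how many peaks they held. The HOXD window (chr2:176037487-176240907, 203 kb) held 10 control, 9 clone 1 and 8 clone 2 peaks. The HOXA window (chromosome 7, 207 kb) held 7, 1 and 2, and the HOXC window (chr12:53888831-54106030, 217 kb) held 5, 3 and 2. The HOXB window (chr17:48478526-48778750, 300 kb, which includes the distant HOXB13) held 3, 2 and 0, and no peak of one list overlapped a peak of another there. Together the windows had 2.69 control peaks per 100 kb, beside 2.05 over the gene-bearing span of the chromosomes. The same densities were 1.62 beside 1.25 in clone 1 and 1.29 beside 1.11 in clone 2.

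Of the 25 control peaks, 13 had no overlapping clone 1 peak (52.0%, 31.3 to 72.2), beside 57.9% of all control peaks. In clone 2, 15 had none (60.0%, 38.7 to 78.9), beside 57.1%. Neither clone had a peak over 12 (48.0%, 27.8 to 68.7), beside 46.7%, and both had one over 9 (36.0%, 18.0 to 57.5), beside 31.7%. All 4 shares of HOX-window peaks were near those of the whole control list. Given the score decile of each peak, 17.2 would be absent in clone 1, 17.0 in clone 2 and 14.1 in both at the rates of all control peaks. The HOX-window control peaks were wider than the list, with a median of 649 bp beside 399 bp, and had a median score percentile of 43.0.

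The 10 HOXD control peaks were found in clone 1 in 7 cases (70.0%, 34.8 to 93.3) and in clone 2 in 6 (60.0%, 26.2 to 87.8), with 4.32 and 4.48 expected from their score deciles. The 15 control peaks of the HOXA, HOXB and HOXC windows were found in 5 (33.3%, 11.8 to 61.6) and 4 (26.7%, 7.79 to 55.1), with 3.46 and 3.50 expected. The intervals of the HOXD window and of the pooled windows overlap. The pooled windows differed among themselves. Clone 1 lacked 2 of 5 HOXC, 5 of 7 HOXA and 3 of 3 HOXB control peaks, beside 3 of 10 in HOXD. Clone 2 lacked 3 of 5, 5 of 7 and 3 of 3, beside 4 of 10. Setting HOXD apart from the other windows was not planned beforehand. The HOXD peaks also had a higher median score percentile, 54.9 beside 37.1, and a larger median width, 963 bp beside 499 bp, and the part of either in the difference was not tested.

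**Figure D3:**
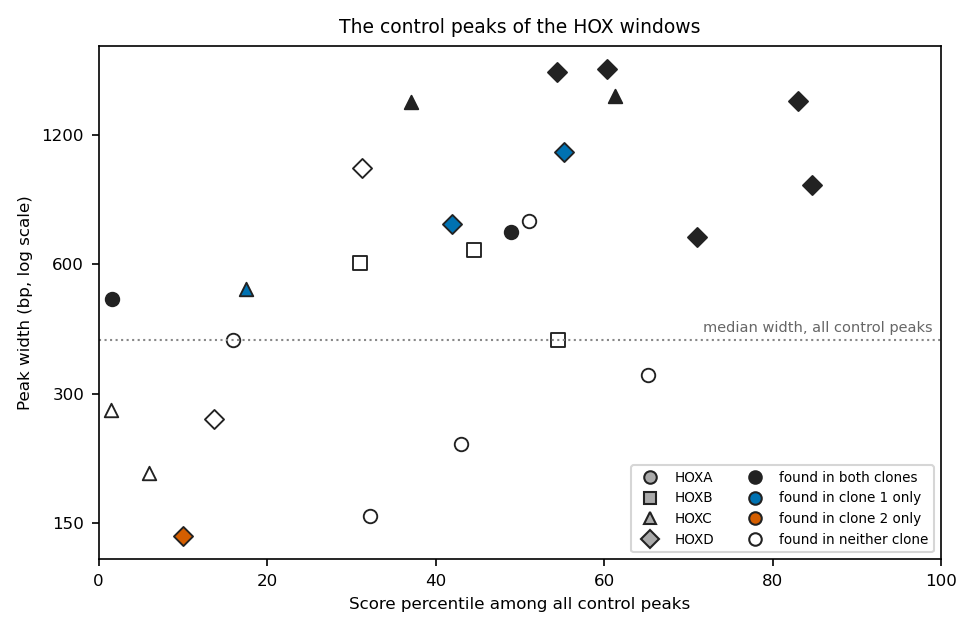
The 25 control peaks of the HOX windows by score percentile within the control list (horizontal axis) and width in bp on a log scale (vertical axis); shape gives the cluster and fill gives whether a clone peak overlaps. The 3 peaks above percentile 70 are HOXD peaks found in both clones, and the dotted line is the median width of all control peaks, 399 bp.

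Away from the starts, the strongest HOXD peaks lay at the 5′ border of the cluster. A peak inside EVX2, a homeobox gene next to HOXD13, was in all 3 lists: 176079496 to 176080934 in control (score 10.3, percentile 83.0), 176079751 to 176080752 in clone 1 (13.3, percentile 96.7) and 176079932 to 176080206 in clone 2 (13.4, percentile 70.3). It had the highest score of any HOX-window peak in either clone, and was 3028 bp from the EVX2 start in control. Between HOXD13 and HOXD12 a peak at 176097371 to 176098063 in control (score 7.95) was also in clone 1 (6.33) and clone 2 (9.17). Between HOXD8 and HOXD4, 10315 bp before the HOXD4 start, a peak was in control (176140492 to 176141235, score 5.89) and clone 1 (6.60) and not in clone 2. Inside HOXD11 a narrow peak of 140 bp in control (score 5.06) was in clone 2 (119 bp, 9.21) and not in clone 1.

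The 5 strongest control peaks absent in both clones were the HOXA13 start peak (7.32), the HOXB6 peak (6.53), a peak between HOXA9 and HOXA10 (27169574 to 27170332, 6.32), a peak inside HOXB3 (48584932 to 48585580, 5.95) and the HOXA11 peak (5.92). The only control peaks of the windows above 7.32, all in HOXD, scored 10.9, 10.3 and 7.95, and both clones had them. Most control peaks of such scores were found: 68.6% to 88.8% of their deciles in clone 1 and 73.8% to 92.1% in clone 2. Among the clone 1 peaks with no control peak were the HOXB4 start peak, 1 beyond the 3′ end of HOXB1 (48527623 to 48527793, score 5.28) and 2 at the 3′ end of HOXD3 (scores 5.11 and 5.60).

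**Figure D4:**
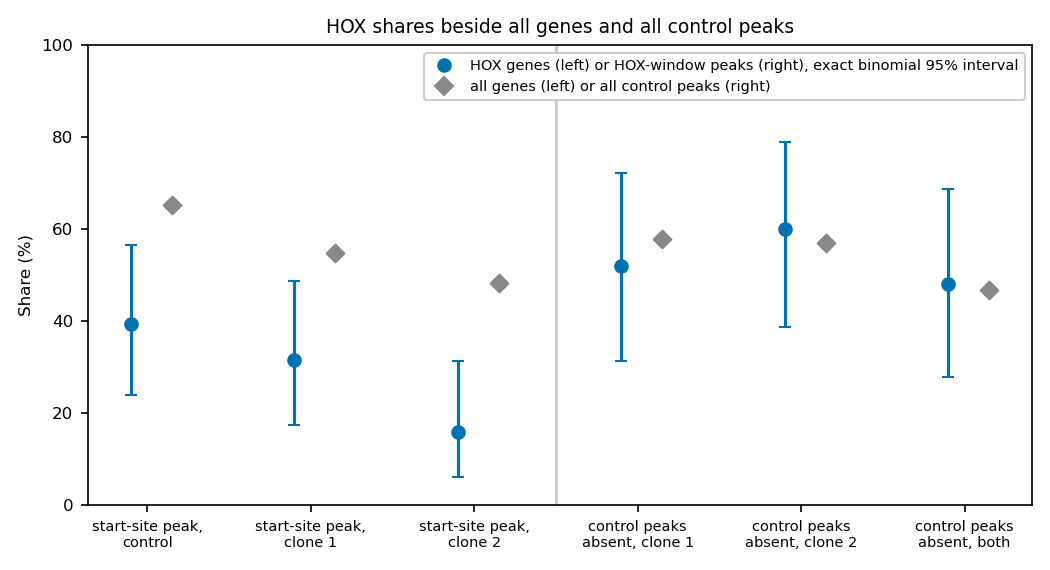
Share of the 38 HOX genes with a start-site peak (left) and share of the 25 HOX-window control peaks absent in the clones (right), in percent with exact binomial 95% intervals, beside all genes and all control peaks (grey diamonds). The HOX start-site shares (39.5%, 31.6% and 15.8%) lie below those of all genes, and the absent shares (52.0%, 60.0% and 48.0%) lie near those of all control peaks.

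Genes that act with or on the HOX clusters were counted in the same way, to be read beside 65.2%, 54.8% and 48.3% of all genes with a start-site peak in control, clone 1 and clone 2. Of all genes with one in control, 19.0% lacked it in clone 1, 26.7% in clone 2 and 13.7% in both. Of 7 HOX cofactor genes with a known strand, 5 had a start-site peak in every list: PBX3, PBX4, MEIS1, MEIS2 and PKNOX1. Their control scores lay between 7.93 for PKNOX1 and 15.1 for PBX3. None of these 5 lacked one in a clone, a number too small to set apart from the shares of all genes. All 8 genes of chromosome architecture, among them CTCF and cohesin subunits, had a start-site peak in all 3 lists.

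Of 27 Polycomb genes, 25 had a start-site peak in control, 23 in clone 1 and 20 in clone 2, and 2 of the 25 lacked it in both clones, beside 13.7% of all genes. The 2 were PCGF6 (6.89 in control) and CBX7 (5.80 in control), of Polycomb repressive complex 1. EZH2, the H3K27 methyltransferase, scored 13.8, 9.56 and 14.4. Of 12 trithorax and COMPASS genes, 11, 10 and 7 had a start-site peak, and 1 of the 11, the H3K27 demethylase KDM6B (6.52), had it in control alone. KMT2A, a methyltransferase known to maintain HOX expression, scored 7.40, 5.63 and 8.31.

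Of 11 retinoid and CDX genes, which control HOX expression in the embryo, 4, 4 and 2 had a start-site peak, which were not the same genes: RXRA (6.74), a retinoid receptor, had it in control alone and CDX4 (5.43), a caudal-type homeobox gene, in clone 1 alone. Of 12 related homeobox genes the counts were 10, 8 and 7, and 2 of the 10 lacked it in both clones, beside 13.7% of all genes. DLX1, DLX2, DLX6, EN2, GBX2, MEOX2 and MNX1 had one in every list, and the 2 with it in control alone were GSX2 (5.94) and GBX1 (6.25). EVX1 and EVX2, which border the HOXA and HOXD clusters, had no start-site peak in any list. The other protein-coding genes overlapping the windows were PRAC1 and PRAC2, with no peak, the HOXA10-HOXA9 read-through gene, with the control peak at 6.32, and TTLL6. The start-site peak of TTLL6 (5.43 in control alone) lay beyond the window.

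Markers of the labelled cell type had few measured members. Their counts stand beside 65.2%, 54.8% and 48.3% of all genes with a start-site peak in control, clone 1 and clone 2, and were not tested against these. Of 5 epithelial markers with a known strand, 2 had one in control (KRT8 at 5.76 and ITGA6 at 9.25), 1 in clone 1 and 0 in clone 2. The other listed epithelial markers, EPCAM, CDH1, KRT18, KRT19, KRT7, KRT14, KRT17, ESRP1 and GRHL2, were not measured. Of 7 mesenchymal markers it was 6, 5 and 3, with VIM at 9.02, 7.95 and 12.0 and CD44 in control alone. Of 4 luminal markers it was 2, 1 and 3. FOXA1 had one in every list, GATA3 in control (12.6) and clone 2 (10.3) and not in clone 1, PGR in clone 2 alone (8.21) and ESR1 in no list. Of 2 leukocyte markers, CD68 had one in control alone and PTPRC in no list, and the 1 endothelial marker tested, KDR, had one in all 3. The melanocyte markers MLANA and TYR had none, while DCT and MITF had one in all 3. An accessible start does not show that a gene is expressed.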

How the data were processed

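ATAC-seq peaks of MDA-MB-436 were analysed from 3 deposited lists without headers, each with chromosome, start, end and a score. Per the labels, the authors merged the replicates of a group into 1 list. HISAT2, MACS2, ChIPseeker and the builds hg38 and mm10 are named per the submitters' processing notes. For versions and options: not given in the sources used here. Every deposited score is read as the authors' −log10 p. The steps next to the most frequent score of each list (4 of 4, 4 of 4 and 3 of 4 matched, within 0.0005) follow a Poisson upper tail of constant background. That background is 2.02 in control, 1.91 in clone 1 and 0.985 in clone 2. Only 4009 control, 3628 clone 1 and 1733 clone 2 peaks lie on such steps, and for the other peaks the reading is assumed. No score lies below 5.00. Read depth is unknown, and clone 2 peaks are narrower (median 200 bp beside 399 and 453 bp). The 6 libraries of B16F10 mouse melanoma cells were not analysed here.

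Coordinates are counted from 1. Genes come from RefSeq GRCh38.p14. Starts are the annotated 5′ end plus every start in the RefSeq promoter table, which held 20 of the 38 HOX genes. The 18 without an entry took the strand shared by the listed genes of their cluster. They are HOXA5, HOXB2 to HOXB9 and HOXB13, HOXC6, HOXC8 to HOXC13 and HOXD9. Peaks count as shared with at least 1 bp of overlap. Expected numbers use the share found in each control score decile. Overlap and distance functions were tested on simulated data. Python 3.11.15, pandas 2.3.3 and scipy 1.17.1 were used. The members, lists and rules were chosen with earlier results of these data known. 1 further HOX gene, with the peaks at it and the comparisons that rest on it, is not reported here, and counts and figures are over the rest. Named genes were the 38 HOX genes (with values where a start-site peak differed between control and a clone, and for the 5 strongest in control), other protein-coding genes of the windows, and list members with a change in both clones; named peaks were the 2 strongest control peaks per window and the 5 strongest control peaks absent in both clones. Genes and peaks named beyond this rule were chosen after their values were seen. Other overlaps, list lengths, flanks and start definitions were tried.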

Additional observations from a re-analysis of the deposited data

How the results depend on the processing

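Of 115 values under other settings, 94 stayed within the counting interval of a share or within 1.5 times a count, and 21 moved. Clone 2 peaks are narrow, so requiring an overlap of 25% or of 50% of the control peak put 96% of the control HOX-window peaks absent in clone 2. Among peaks above the median score of their list, 30% of control peaks were absent in clone 1, and 0% of 4 clone 1 peaks were absent in control. With lists of equal length (34572 peaks) the windows held 11 control peaks, of which 36.4% were absent in clone 2 and 27.3% in both clones. Start-site peaks were then present at 8 HOX genes in control and 6 in clone 1, at 3 posterior genes in control, and 2 genes with a control peak lacked one in clone 2 and 1 in both, while 2 genes had one in clone 1 and not in control; fewer peaks enter by construction. Within 3000 bp of a start, clone 2 had a peak at 10 HOX genes, 2 of them posterior. Counting either annotated gene end put 2 genes with a peak in clone 1 and not in control. With the 20 genes and their listed starts alone, a setting added after the data were seen, the count was 7 of 20 in clone 1 and the posterior counts were 4, 1 and 0 of 8. There, 0 genes had a peak in clone 1 and not in control, since HOXB4 is not listed. These counts moved partly because fewer genes enter, so they do not show that a share moved. Using the annotated 5′ end alone, also added then, moved no count by over 1.5 times. Posterior counts under other settings were added then too. The lists are merged, so no replicate could be left out. No paired analysis was possible because the replicates of each group were merged into 1 list.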

Other observations

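Most lncRNA genes of the windows that have a RefSeq start had no peak at it. The share over all lncRNA genes was not computed, so these counts are not set apart from lncRNA genes elsewhere. Of 35 lncRNA genes, 24 have a RefSeq start. Of these, 4 had a peak within 1000 bp of it in control, 3 in clone 1 and 2 in clone 2, and 19 had none in any list. The lncRNA genes without a RefSeq start are outside these counts. Some of them, such as HOXC13-AS in all 3 lists, had a peak within 1000 bp of an annotated end, and others, such as HOTAIR, had none. HAGLR, an antisense lncRNA at HOXD1, had the HOXD1 peak in all 3 lists (10.9, 7.39 and 9.59). LOC100129455, at HOXD8, also had one in all 3. HOTTIP, a lncRNA beside HOXA13, and HOXA11-AS had one in control alone, at 7.32 and 5.92, and these are the peaks counted above for HOXA13 and HOXA11. LOC105371808, near HOXB1, had one in clone 1 alone (5.28). HOTAIR, in the HOXC cluster, had no peak inside the gene in any list. Peaks between neighbouring starts cannot be assigned to either gene.

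The windows hold 8 miRNA genes, of which the miR-196 genes are known to repress HOX mRNAs. MIR196B lies between HOXA9 and HOXA10 (27169480 to 27169563), 11 bp from the control peak at 6.32 that neither clone had; the nearest clone 1 and clone 2 peaks were 38130 and 38407 bp away. MIR196A1 and MIR196A2 lie 6191 and 4671 bp from the nearest control peak. The 2 mature forms share their seed (bases 2 to 8, in capitals) and are shown because MIR196B is the miRNA nearest to a peak present in control alone. MIR7704, beside HOXD1, overlapped the HOXD1 control peak.
hsa-miR-196b-5p: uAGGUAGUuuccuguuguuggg
hsa-miR-196a-5p: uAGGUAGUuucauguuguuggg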
